A study of Mus musculus with 4 samples.

Results

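The wild-type baseline of mouse long-term haematopoietic stem cells (LT-HSCs) is described here from 2 of the 4 libraries of the series, ranked by how abundant each transcript was. All genes with a value in both wild-type (WT) libraries were taken, which gave 9244 of the 9796 genes listed, and they were ordered by the mean of log2(value + 1) over WT 1 and WT 2. Values are normalised read counts, that is, reads of a gene divided by a size factor of the library. No comparison between genotypes was made. Both libraries came from C57BL/6 mice 8 to 12 weeks old and are labelled wild type. The cells were haematopoietic stem cells sorted as LSK, that is, with Sca-1 and Kit and without lineage antigens, and lacking CD34 and Flk2, and polyA RNA was amplified with SMARTer, a chemistry for very small amounts of RNA. The labels do not say whether the 2 libraries came from separate animals or from pools, so the spread between them may be technical, and no test was run.

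LT-HSCs are the rare marrow cells that can rebuild every blood lineage for the life of the animal. They divide seldom, are held in the marrow by receptors and adhesion molecules, and are kept undifferentiated by a network of transcription factors. Stem cell factor acting on its receptor Kit helps to maintain them. The CD34- Flk2- part of the LSK compartment is the part enriched for long-term repopulating cells, with multipotent progenitors in the remainder.

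The libraries held 9950979 (WT 1) and 11754067 (WT 2) reads in genes with values, and the median gene had 607 and 715 reads. The table starts at a mean of 120.2 over the libraries of the series, so genes below that level were not analysed here. A further 552 listed genes (5.63%) had no library values. Among these, 3 had a mean in the authors' deposited table above 10000, and the highest of them, 65893.9, would stand in place 2 by that mean, so the order given below lacks a few very abundant genes. Actb, Actg1 and Gapdh were not among the genes with values, and neither was any mitochondrially encoded gene of the list used.

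All 7 genes chosen to mark these cells were measured in both libraries and stood in the upper part of the order. They were chosen with earlier results of these data known, so their places are a description and not a check of cell identity. Car2 (ENSMUSG00000027562), carbonic anhydrase 2, had 49010 in WT 1 and 51127 in WT 2 (mean 50069 ± 1497, SD, n = 2) and ranked 3. Kit (ENSMUSG00000005672) had 22329 and 17785 and ranked 18, and Txnip (ENSMUSG00000038393), a thioredoxin-binding protein that curbs glucose uptake, had 17220 and 21205 and ranked 20. The median gene, for comparison, had a level of 690.6. Hlf (ENSMUSG00000003949), a transcription factor of repopulating cells, had 8877 and 7805 and ranked 98. Ly6a (ENSMUSG00000075602), which encodes Sca-1, had 2343 and 2628 at rank 921. Procr (ENSMUSG00000027611), the endothelial protein C receptor used to sort stem cells, had 2050 and 2964 at rank 930, and Mecom (ENSMUSG00000027684), a zinc finger factor needed for stem cell maintenance, had 2405 and 1967 at rank 1155. None of the 7 differed by 2-fold between the libraries, and Procr differed most, with a log2 difference of -0.53 (WT 1 minus WT 2).

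The other genes of the sorting gate were also read. Cd34 had 6508 normalised read counts in WT 1 and 4945 in WT 2 (rank 212), and Flt3, which encodes Flk2, had 1170 and 372. The gate was set on surface protein, so these are values of the mRNA only. Flt3 was 3.15-fold higher in WT 1, with a 95% interval of 2.79 to 3.55 that covers counting error alone.

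By read count, the gene of a ribosomal RNA precursor and a nuclear noncoding RNA led the order. Messages for an adhesion receptor, chaperones, translation and antigen presentation were also among the most abundant. Rn45s, the gene of the ribosomal RNA precursor, came first with 139405 in WT 1 and 99759 in WT 2. Whether its reads came from the precursor or from mature ribosomal RNA was not tested. Rn45s had no matched exon length, so it is absent from the order per kilobase of exon given below. Malat1, a nuclear long noncoding RNA, followed with 71476 and 62198. Car2 stood next, and then Gpr56, an adhesion receptor of stem cells, with 38738 and 50751. The ranks below these were taken by Hsp90ab1, a cytosolic chaperone (32194 and 47438), by the elongation factors Eef2 (35459 and 42265) and Eef1a1 (33148 and 37557), and by B2m, the light chain of MHC class I (35249 and 30847). Tubb5, a beta tubulin, and the class I heavy chain genes H2.D1 and H2.K1 filled places 9 to 11.

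**Figure D1:**
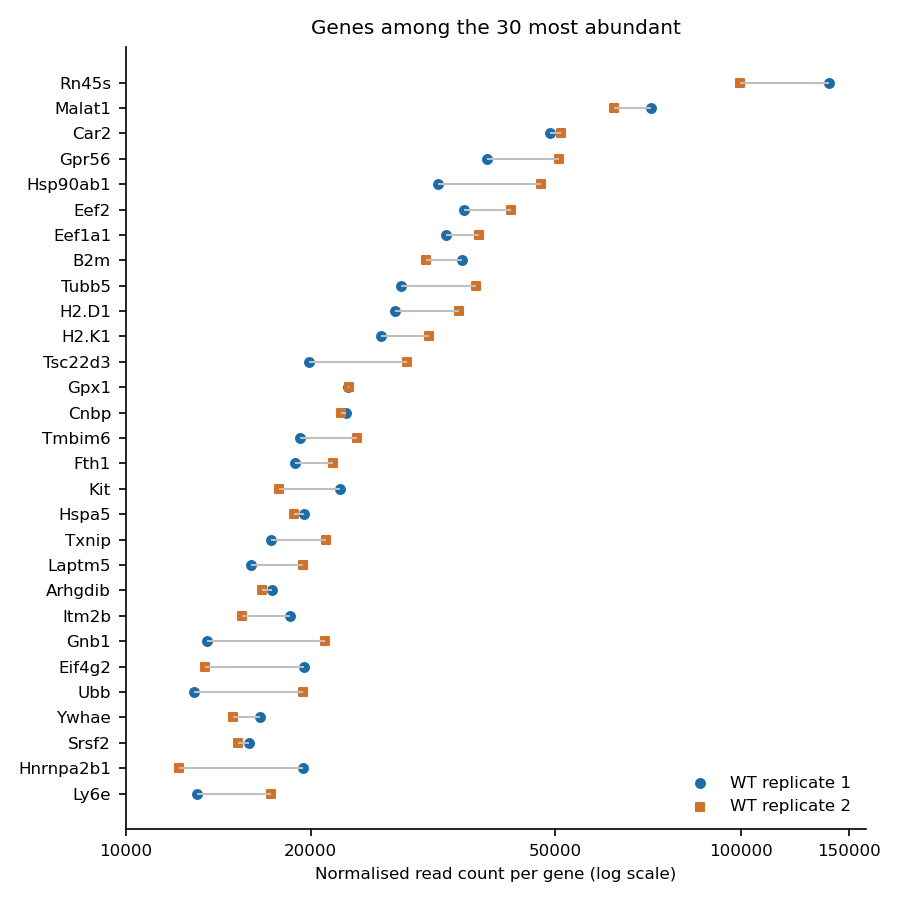
Normalised read counts (horizontal axis, log scale) of genes among the 30 with the highest mean of log2(value + 1), with a circle for WT replicate 1 and a square for WT replicate 2. Rn45s stands apart at 139405 and 99759, and in none of the genes plotted do the libraries differ by 2-fold.

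Signal was spread over many of the 9244 genes with values. Shares are of the signal of these genes only, which lacks the 552 listed genes without library values. The 10 most abundant genes took 4.32% of the signal in WT 1 and 4.25% in WT 2, the first 100 took 14.3% and 14.5%, and the first 1000 took 44.4% and 44.8%. It took 1270 genes in WT 1 and 1244 in WT 2 to reach 50% of the signal. Levels above 10000 in both libraries were reached by 60 of 9244 genes, and levels above 1000 by 2900. The shares of the 2 libraries therefore differed little at every one of these depths, although Rn45s alone took 1.23% of WT 1 and 0.858% of WT 2.

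The order so far is by read count, as the genes were ranked, and long genes collect more reads, so levels of different genes are compared per kilobase of annotated exon. On that scale B2m came first, with 40987 per kb in WT 1 and 35869 in WT 2, and Car2 came next with 27411 and 28595. Gpx1, a glutathione peroxidase that removes hydrogen peroxide, had 21454 and 21515 per kb. Eef1a1 had 18477 and 20935, and H2.K1 had 15735 and 18849. Fth1, the ferritin heavy chain that stores iron, Rpl8, Arhgdib, Eef2, Tubb5 and the actin-binding Pfn1 were also among the first 15, as were Hsp90ab1 and H2.D1. Mir682 stood there too, at 24378 per kb, a value that rests on an annotation of 96 bases. Of the 100 genes highest by read count, 61 were also among the 100 highest per kb. Among those that moved down was Hlf, at 1478 per kb, while Kit had 3818, Ly6a 2476, Procr 1570 and Mecom 337, each against a median of 214 per kb over all genes.

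Of the 100 most abundant genes, 95 were protein coding, the lowest mean was 8212, and 56 belonged to at least 1 of the functional lists used. The actin cytoskeleton list supplied 10 of them, chaperones 6, ribosomal proteins 5, and translation factors, stem cell surface genes and antioxidant or iron genes 4 each. None of the 100 differed by 2-fold between the libraries, and 50 of 100 were within 1.2-fold. This agreement is partly set by the ranking, since a mean of log2 values places genes that are high in a single library lower. Mpo, with 17017 in WT 1 and 2359 in WT 2, had a mean of 9688 but ranked 170. Over all genes, 415 of 9244 (4.49%) were at least 2-fold higher in WT 1 and 215 (2.33%) at least 2-fold higher in WT 2. The largest difference among the 100 was 0.86 on the log2 scale.

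The start sites of the most abundant genes were examined for the TATA motif, the element that places the transcription machinery at some promoters. RefSeq promoter windows (build GRCm38.p6, 250 bases before to 50 after the start) matched 78 of the 100 genes by name. The letters TATAAA or TATATAA, on either strand and counted once per promoter where they overlap, occurred in 21 of 78 (26.9%). The share was 14.2% of 239 windows among the 300 most abundant genes, 7.18% of the 7498 windows of all genes with values and 15.7% of all 27025 windows in the table. On the coding strand and within 50 bases before the start, the motif occurred in 11.5% of the 78 and in 1.45% of the 7498. CpG content did not set the 100 apart to a like degree, with a median observed over expected ratio of 0.75 against 0.78. A match of letters is a description and not a measured binding site. The motif within 50 bases before the start was present in 9 of the 78 windows and absent from the others. Genes to show were picked from those 9. The windows of 6 of these genes, from 80 bases before to 20 after the start, are shown 5′ to 3′ on the gene's strand with the motif in capitals, because they belong to the classes that lead the order: translation (Eef2, chr10:81176551-81176650, plus strand), class I presentation (B2m, chr2:122147607-122147706, plus strand, and H2.D1, chr17:35263014-35263113, plus strand), a chaperone of the endoplasmic reticulum (Hspa5, chr2:34772010-34772109, plus strand), the marker Txnip (chr3:96557877-96557976, plus strand) and splicing (Srsf2, chr11:116853075-116853174, minus strand).
Eef2: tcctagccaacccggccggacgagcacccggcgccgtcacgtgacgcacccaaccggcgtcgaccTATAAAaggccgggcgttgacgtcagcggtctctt
B2m: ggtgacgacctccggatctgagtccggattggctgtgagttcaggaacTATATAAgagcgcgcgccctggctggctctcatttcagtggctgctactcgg
H2.D1: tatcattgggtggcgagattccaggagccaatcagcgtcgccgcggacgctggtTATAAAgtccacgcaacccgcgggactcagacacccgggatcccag
Hspa5: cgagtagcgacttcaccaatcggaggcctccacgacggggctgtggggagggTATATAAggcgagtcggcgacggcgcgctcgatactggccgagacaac
Txnip: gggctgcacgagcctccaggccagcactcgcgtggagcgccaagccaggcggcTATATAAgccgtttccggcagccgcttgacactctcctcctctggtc
Srsf2: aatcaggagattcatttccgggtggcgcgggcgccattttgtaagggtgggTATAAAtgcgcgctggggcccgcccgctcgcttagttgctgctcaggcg

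Receptors and adhesion molecules came next in the description because they define how LT-HSCs meet their niche, and 45 of the 52 genes of that list had values. Their median was 546 per kb of exon, above the 214 of all genes, and 19 of 45 stood among the 1000 most abundant. Gpr56, at 11464 per kb, led the list by read count. Angpt1, a ligand of the Tie2 receptor, had 11765 normalised read counts in WT 1 and 8175 in WT 2. Cd81, a tetraspanin, had 8117 and 9758, and Mmrn1, a platelet and endothelial glycoprotein, had 7356 and 7693. Esam, an adhesion molecule of endothelium and stem cells, had 3371 and 5399, and Tek, which encodes Tie2, had 1087 and 1080. The level of Tek thus differed by less than 1.2-fold between the libraries. Slamf1, which encodes the stem cell marker CD150, had 678 and 971, and Vwf, the von Willebrand factor carried by platelet-biased stem cells, had 928 and 1853. Cxcr4, the receptor for the niche chemokine Cxcl12, had 584 and 551. The 4 members at least 2-fold higher in WT 1 (8.89%, beside 4.49% of all genes) included Cd53, Cd52 and Cd9, known from mature blood cells as well, and 0 were 2-fold higher in WT 2.

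Of the 65 listed haematopoietic transcription factors, 57 had values, with a median of 267 per kb of exon and 21 among the 1000 most abundant genes. Meis1, a homeodomain factor of stem cells, ranked 32 with 15578 in WT 1 and 13815 in WT 2. Myc, which drives growth, had 8124 and 8927 (rank 95). After Hlf came Nfe2, a factor of megakaryocyte and erythroid genes, with 6913 and 8984, and the ETS factor Fli1 with 8436 and 6635. These leading factors differed by less than 1.5-fold between the libraries. Lmo2, a bridging protein of stem cell transcription complexes, had 4510 and 6289, Gata2 had 4408 and 5818, and Lyl1 had 4774 and 4183. Per kb of exon, Lmo2 (2852) and Lyl1 (2488) lay above the related factors Runx1 (182), Erg (284) and Tal1 (155). Runx1 had 1196 and 1515 normalised read counts, Erg had 1296 and 676, and Tal1 had 608 and 719. Gata1, the erythroid and megakaryocyte factor, had 1004 and 1063. Of the homeobox genes, Hoxa9 had 838 and 884, and Hoxb4 had 225 and 158. Of the 57 factors 5 were past 2-fold (beside 6.82% of all genes), with Satb1, Zbtb16 and Id2 higher in WT 1 and the stimulus-induced Egr1 and Klf6 higher in WT 2.

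The list of quiescence and FoxO genes also held D-type cyclins and the kinases Cdk4 and Cdk6. Its median is therefore not the level of genes that hold cells out of cycle alone. This list had values for 27 of 35 genes and a median of 172 per kb, against 214 for all genes. Txnip and the D-type cyclin gene Ccnd2, with 10635 in WT 1 and 12990 in WT 2, led it. Cdkn1b, encoding the kinase inhibitor p27, had 1165 and 1202. Cdkn1c, encoding p57, had 280 and 285, and Cdkn1a, encoding p21, had 141 and 139. The 3 inhibitors were therefore nearly level between the libraries. Among 53 replication genes, Mcm6 had 7560 and 7193 and Mcm3 had 4791 and 4876, both subunits of the replicative helicase. The 64 mitotic genes had the lowest median among the lists plotted by level per kb, 119 per kb, and Mki67, a marker of cycling cells, had 2260 and 1271. Of the mitotic genes 47 of 64 were higher in WT 1, 9 of them by 2-fold (14.1%, beside 4.49% of all genes) and 0 in the other direction (2.33% of all genes), with a median log2 difference of 0.47 against -0.05 for all genes. Their median GC was 46.4%, below the 49.8% of all genes, and with each GC bin centred the median was 0.34 and 7 were past 2-fold.

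**Figure D2:**
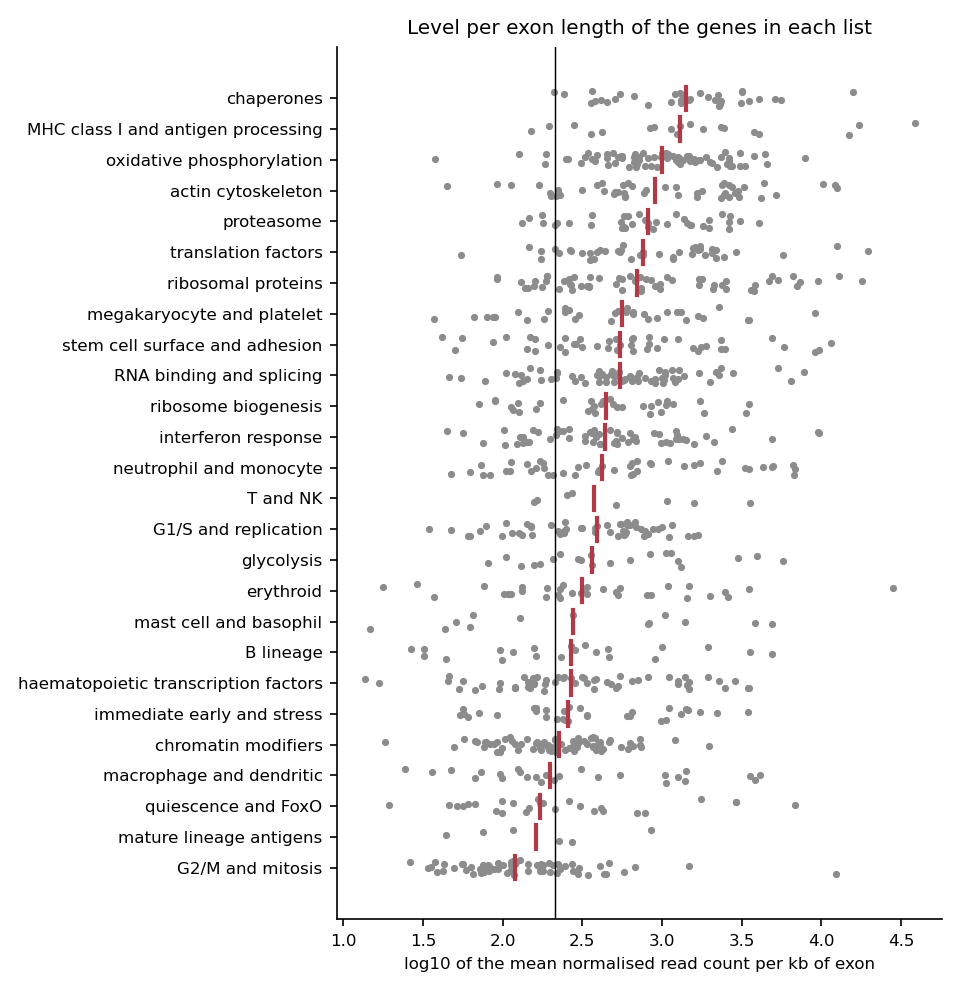
Each grey point is a gene, placed by the log10 of its mean normalised read count per kb of exon over the 2 libraries, with red bars for list medians and a black line for the median of all genes. Chaperones (median 1421 per kb) and class I antigen processing (1304 per kb) stand at the top and mitotic genes (119 per kb) at the bottom.

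Chaperones, class I presentation and oxidative phosphorylation had the highest medians per kb of exon among the lists plotted. The 34 chaperone genes had a median of 1421 per kb, led by Hsp90ab1 and by Hspa5, which had 19536 normalised read counts in WT 1 and 18780 in WT 2. The 19 genes of class I presentation had a median of 1304 per kb. The 72 nuclear genes of oxidative phosphorylation had a median of 994 per kb, and the 21 glycolytic genes 361 per kb. Atp5a1, a subunit of ATP synthase, had 10861 and 14817, and Aldoa, a glycolytic aldolase, had 8899 and 11969. Both lists were mostly lower in WT 1: 56 of 72 and 19 of 21 members, with median log2 differences of -0.21 and -0.33. With each GC bin centred these medians were -0.13 and -0.16. The proteasome (37 genes, median 812 per kb), translation factors (43 genes, 756 per kb) and the 61 ribosomal proteins with values (698 per kb) followed. Ribosomal proteins ran from Rpl4, with 12987 and 16504, down to a lowest mean of 128, and many have near-identical pseudogene copies, so their reads may be split in ways the sources used here do not state.

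Actin regulators and RNA-binding proteins lay above the 214 per kb of all genes as well, with the RNA-binding list at a median of 545 per kb. The 48 actin genes had a median of 915 per kb, with Arhgdib, an inhibitor of small GTPases, at 17309 in WT 1 and 16667 in WT 2, and Rac2, a GTPase of blood cells, at 12121 and 13375. Srsf2, a splicing activator, had 15873 and 15207, while Hnrnpa2b1 had 19398 and 12204. The RNA-binding list as a whole did not lean to either library, with 35 genes above 0 and 35 below. Interferon-response genes, 60 of 69 with values, had a median of 443 per kb. Ifitm3, an interferon-induced membrane protein, had 5301 and 7840.

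The 2 libraries differed by more than counting error at every level of abundance, and most among the genes lowest in the order. Across all genes Pearson's r of the log2 values was 0.90 and Spearman's coefficient 0.92, a description over genes that share both libraries. The typical gene differed by 1.25-fold, a median absolute log2 difference of 0.32. With the genes in 10 bins of equal size by abundance, this median was 0.28 in the highest bin and 0.52 in the lowest, where counting error alone would give 0.023 and 0.11. The share of genes past 2-fold went from 1.73% in the highest bin to 24.6% in the lowest. The bins follow the mean of the log2 values, which places a gene low when a single library has few of its reads. Slc4a1, with 1194 in WT 1 and 0 in WT 2, ranked 9242. The lowest bin therefore gathers genes that disagree partly by construction, and its share is not a property of low abundance alone. In all, 3870 genes (41.9%) were within 1.2-fold and 8614 (93.2%) within 2-fold. The 95% interval of the ratio, which covers counting error only, left out equality for 6848 genes (74.1%). Among the 300 most abundant genes the closest were Cers2, a ceramide synthase, with 6590 and 6585, Gpx1 with 22999 and 23064, and Copz1, a coatomer subunit, with 4718 and 4700. The others of the closest 12 included P4hb and Pdia6, which fold secreted proteins, Cct6a, Lcp1, Pik3ip1, Mcm3, Cnbp and Rbm5.

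**Figure D3:**
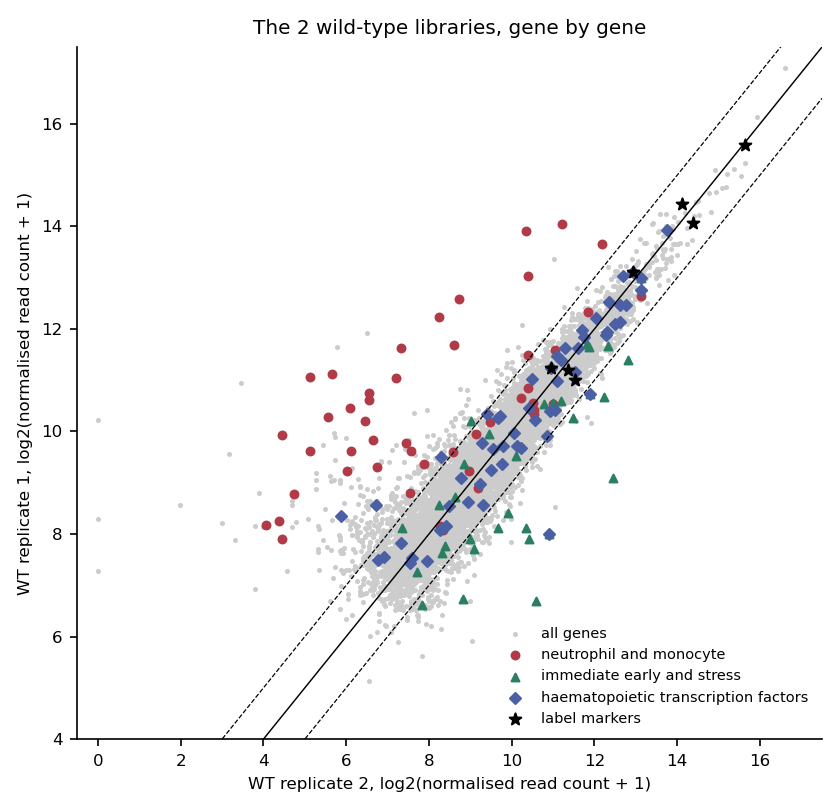
Each point is a gene, with log2(normalised read count + 1) in WT replicate 2 on the horizontal and in WT replicate 1 on the vertical axis, a solid line at equality and dashed lines at 2-fold. The label markers (stars) and most transcription factors lie inside the dashed lines. Above them lie 32 neutrophil and monocyte genes, and 15 immediate early and stress genes lie below.

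The genes that disagreed most were markers of mature blood cells, and they were higher in WT 1. The neutrophil and monocyte list had values for 47 of 58 genes, with 32 at least 2-fold higher in WT 1 and 0 in WT 2, beside 4.49% and 2.33% of all genes, and a median log2 difference of 2.63. The list summed to 124561 in WT 1 and 41278 in WT 2, 1.10% and 0.355% of the signal, and none of its members was at 0 in either library. Mpo, the myeloperoxidase of granules, had 17017 in WT 1 and 2359 in WT 2, a 7.21-fold difference (95% counting interval 6.91 to 7.54). Ngp, a granule protein, had 15381 and 1304, Elane, neutrophil elastase, had 8385 and 1352, and S100a8, a calcium-binding protein of neutrophils, had 6165 and 425. Chi3l3, a chitinase-like protein, had 2125 and 33.6. Not every member followed: the granule protease Prtn3 had 5152 and 3648, Padi4, which converts arginine to citrulline in histones, had 1500 and 1450, and Csf3r, the receptor for granulocyte colony-stimulating factor, had 1365 and 1496. In bulk RNA, fewer cells of a type and less RNA per cell cannot be told apart.

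Several genes of haemoglobin and the red cell membrane were higher in WT 1. Of the 34 erythroid genes with values (50 listed), 11 were 2-fold higher in WT 1 and 0 in WT 2 (32.4%, beside 4.49% of all genes), with summed levels of 96205 and 93980 that Car2 dominated. Slc4a1, the anion exchanger of the red cell membrane, had 1194 in WT 1 and 0 reads in WT 2, at least 402-fold higher against a floor of 3 reads in WT 2. Beta.s, a beta globin gene, had 3211 and 53.4, and Alas2, the erythroid enzyme that starts haem synthesis, had 756 and 7.91. Beta globin genes have near-identical copies, so the value of Beta.s is uncertain. Of the other members, Gata1, Nfe2, Tfr2 and Epor were within 2-fold, and Epor, the erythropoietin receptor, had 389 and 397.

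Platelet genes also differed in part. Of 34 with values (43 listed), 11 were 2-fold higher in WT 1 and 0 in WT 2 (32.4%, beside 4.49% of all genes), and the sums were 100569 and 90516. Ppbp, a platelet chemokine, had 3854 in WT 1 and 89.0 in WT 2, F13a1, a clotting factor subunit also made by monocytes, had 2230 and 49.5, and Thbs1, thrombospondin, had 1001 and 51.4. Tubb1, the platelet beta tubulin, had 624 and 69.2. In contrast Mmrn1 was level, as were Itga2b (2326 and 2166) and Gp9 (1230 and 1250), both subunits of platelet receptors. Selp, P-selectin, had 295 and 307.

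Smaller lists of B-lineage, mast cell, macrophage and stromal genes held further genes that were 2-fold higher in WT 1, beside 4.49% of all genes. Of 21 B-lineage genes with values (41 listed), 9 were 2-fold higher in WT 1 and 0 in WT 2, with sums of 31565 and 26372. Ebf1, the factor that commits cells to the B lineage, had 379 in WT 1 and 2.97 in WT 2, which is 3 reads (ratio 128, 95% counting interval 43.3 to 622). Il7r, the interleukin 7 receptor, had 312 and 0, at least 105-fold higher against the floor. Igj, Cd79b and Cd74 were within 2-fold, with Igj at 7337 and 6260. Of 13 mast cell and basophil genes (22 listed), 5 were 2-fold higher in WT 1 and 0 in WT 2, with sums of 37180 and 32679, of which Kit gave the most. Prss34, a basophil protease, had 1979 and 9.89. Of 26 macrophage and dendritic genes (46 listed), 12 were higher in WT 1 and 1 in WT 2, H2.Eb1. The sums were 39413 and 42754, lower in WT 1, and the median log2 difference of 0.59 became -0.33 in the 13 members with a mean of at least 500. The mast cell and basophil median likewise went from 0.33 to 0.01 in 6 members. The chemokine receptor Ccr2 had 971 and 20.8, whereas the lysosomal proteases Ctsd (6907 and 9518) and Ctsb (5584 and 7625) were within 2-fold. Of 8 stromal and endothelial genes (33 listed), 3 were higher in WT 1, with sums of 5605 and 3730, and Ibsp, a bone matrix protein, had 154 and 0. Of 8 T and NK genes with values (40 listed), 0 were past 2-fold in either direction (beside 6.82% of all genes), with sums of 11454 and 14362.

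Together the lists of mature cells held 181 genes. Of these, 78 (43.1%, beside 4.49% of all genes) were 2-fold higher in WT 1 and 1 in WT 2 (2.33% of all genes). The 78 made up 18.8% of the 415 genes that were 2-fold higher in WT 1, and 304 of the 415 were in no list. Because of the cut at a mean of 120.2 over the series, a gene almost absent from WT 2 is listed only if it was high in another library. That cut can raise this share and those of the single lists above. The lists were also chosen with earlier results of these data known. Of the markers of multipotent progenitors, 10 of 15 were 2-fold higher in WT 1 (66.7%, beside 4.49% of all genes). Some of these markers, such as Mpo and Il7r, are also in the lists of mature cells, so the counts are not separate. Cd48, absent from the surface of most LT-HSCs, had 798 in WT 1 and 137 in WT 2. Of the 19 antigens that mark mature lineages, 6 had values and 5 of these were 2-fold higher in WT 1, with sums of 4127 and 551. The part of other cells in these differences was not tested. A difference of 8-fold or more was seen in 56 genes in favour of WT 1 and in 3 in favour of WT 2.

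**Figure D4:**
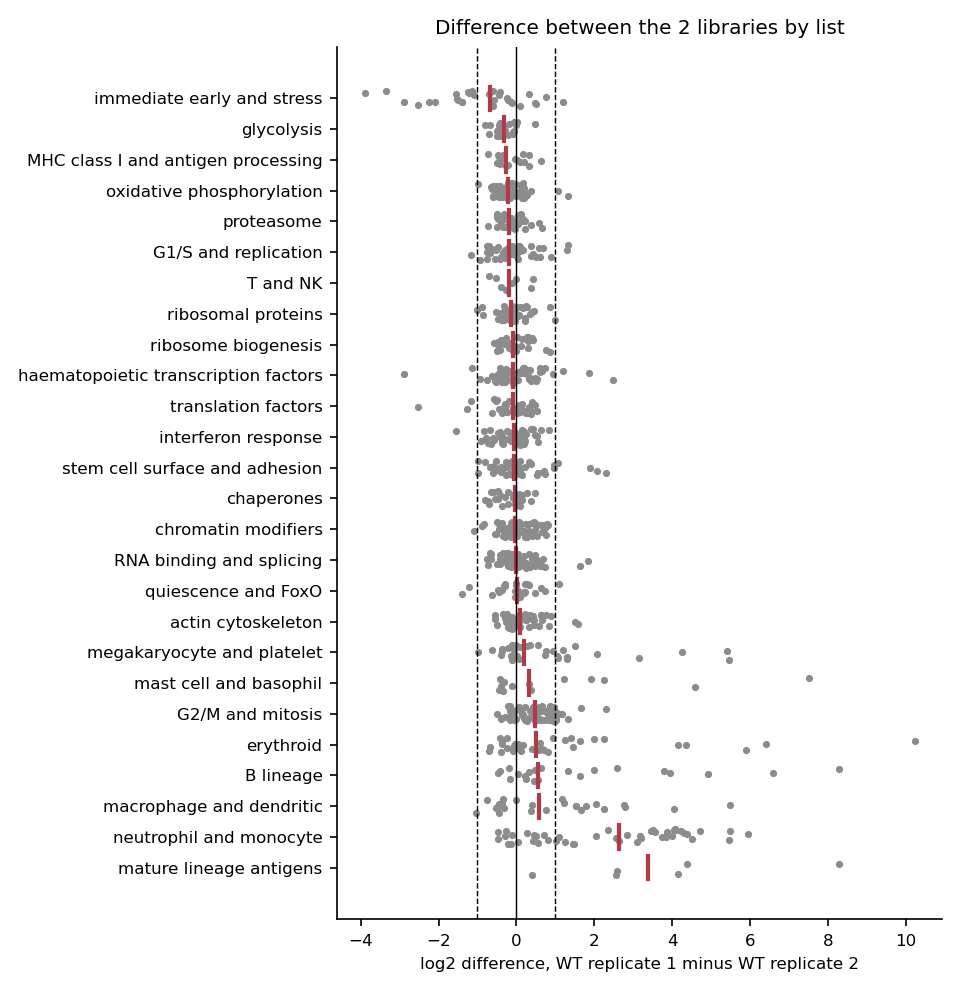
The horizontal axis is the log2 difference of WT replicate 1 minus WT replicate 2, with a grey point per gene, red bars for list medians, and lines at 0 (solid) and at 2-fold in either direction (dashed). The neutrophil and monocyte list has a median of 2.63 and the immediate early and stress list of -0.68. Chaperones (-0.05) and RNA-binding genes sit at or near 0.

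Immediate early genes, which cells switch on within minutes of a stimulus, were listed together with stress genes such as the chaperone gene Dnajb1. This list leaned to WT 2, with 26 of 32 members higher there. Of 32 with values (49 listed), 15 were 2-fold higher in WT 2 (46.9%, beside 2.33% of all genes) and 1, Csrnp1, in WT 1 (4.49% of all genes). The list summed to 37660 in WT 1 and 65903 in WT 2. Fos, a subunit of the AP-1 factor, had 542 in WT 1 and 5576 in WT 2, 10.3-fold higher (95% counting interval 9.37 to 11.3). Fosb, its paralog, had 103 and 1545, Egr1 had 255 and 1898, and Jun, the partner of Fos, had 276 and 1302. The phosphatase gene Dusp1, which ends kinase signalling, had 238 and 1375, and Zfp36, which speeds the decay of AU-rich messages, had 2709 and 7157. Other members were level, among them Myc, Ier2 (1489 and 1749), Nfkbia (3226 and 3751) and Junb (376 and 302). The 15 genes were 6.98% of the 215 that were 2-fold higher in WT 2. Outside the list, Tpt1, a tumour protein controlled at translation, had 366 and 2097, Trim28, a corepressor, had 1248 and 3593, and Obsl1 had 228 and 1007.

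Fos and S100a8 are members of the 2 opposed lists whose windows before the start site hold the TATA letters. They are shown in capitals as above (RefSeq, GRCm38.p6, Fos at chr12:85473810-85473909 and S100a8 at chr3:90668991-90669090, both plus strand). The motif on either strand occurred in 7 of 26 matched immediate early and stress genes (26.9%). It occurred in 9 of 36 matched neutrophil and monocyte genes (25%), against 7.18% of all genes with values. On the coding strand and within 50 bases before the start, as in the windows shown, the shares were 11.5% and 13.9%, against 1.45%. Most members of either list thus lacked the motif there. The lists differed in CpG content, with a median observed over expected ratio of 0.79 for the immediate early and stress genes. It was 0.21 for the neutrophil and monocyte genes.
Fos: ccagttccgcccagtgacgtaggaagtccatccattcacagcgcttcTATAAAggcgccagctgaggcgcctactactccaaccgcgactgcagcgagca
S100a8: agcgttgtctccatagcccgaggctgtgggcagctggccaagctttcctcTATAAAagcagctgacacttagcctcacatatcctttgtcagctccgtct

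Base composition moved with the difference between the libraries. Across the 9202 genes with a matched transcript, Spearman's coefficient of the log2 difference with transcript GC content was -0.43, and with exon length it was 0.17. With the genes in 5 bins of equal size by GC, the median difference went from 0.33 in the bin with the lowest GC to -0.26 in the bin with the highest. In the lowest bin 157 genes were 2-fold higher in WT 1 and 4 in WT 2, and in the highest 45 and 94. Genes 2-fold higher in WT 1 had a median GC of 45.9% and those higher in WT 2 of 54.6%, against 49.8% for all. The neutrophil and monocyte genes had a median GC of 51.5%, and centring each GC bin on its median left 31 of them 2-fold higher in WT 1 with a median of 2.90. Of the immediate early and stress genes, 13 stayed 2-fold higher in WT 2 with a median of -0.51. The centred medians of the mast cell and basophil genes (0.09, from 0.33) and of the MHC class II genes (-0.22, from -0.45) moved closer to 0.

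**Figure D5:**
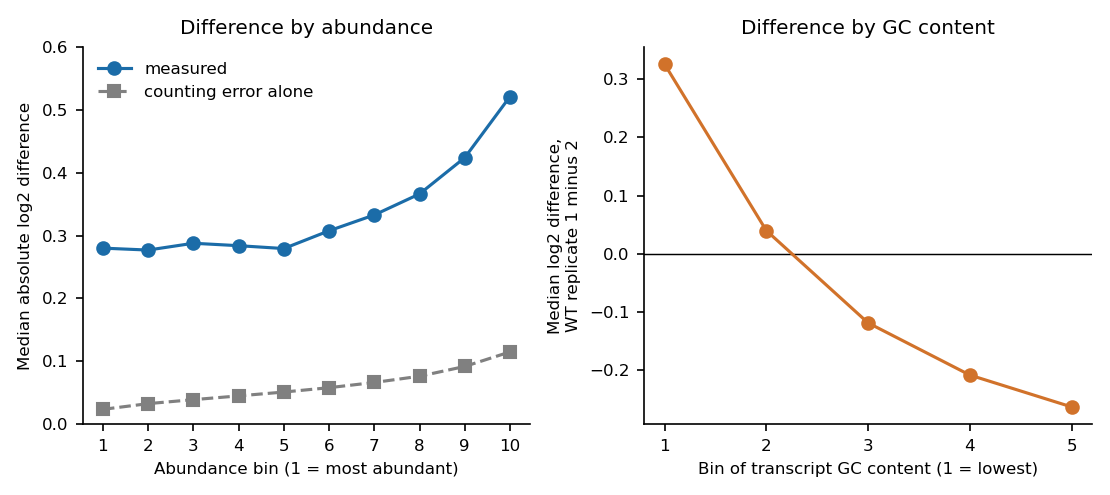
Left, the median absolute log2 difference between the 2 libraries in 10 bins of genes by abundance, 1 being the most abundant (circles) with the value that counting error alone would give (squares). Right, the median log2 difference, WT replicate 1 minus 2, in 5 bins of genes by transcript GC content, 1 being the lowest, which goes from 0.33 to -0.26.

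Noncoding RNAs also leaned to WT 1, with 15 of 19 higher there and 4 by 2-fold (21.1%, beside 4.49% of all genes). Kcnq1ot1, the antisense RNA of an imprinted locus, had 10551 in WT 1 and 2070 in WT 2, and Meg3, another imprinted RNA, had 982 and 272. The counting is not stated to use strand, so reads of Kcnq1ot1 and of the gene it overlaps cannot be told apart. Xist, which coats the inactive X chromosome, had 4321 and 1221, and the Y-linked Ddx3y had 1717 and 1037. RNA of Xist and of Y-linked genes was thus read in both libraries. Gas5, a host of small nucleolar RNAs, had 9849 and 9639 and was level. The 18 noncoding RNAs with a matched transcript had a median GC of 42.8% against 49.8% for all genes, and with each GC bin centred their median log2 difference went from 0.44 to 0.26, with 4 still 2-fold higher in WT 1.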

How the data were processed

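RNA sequencing of polyA RNA amplified with SMARTer was analysed in 2 wild-type libraries, numbered 1 and 2 as in their titles (1 and 3 in their descriptions). Bowtie, DESeq and the build mm9 are named in the submitters' processing notes. Their versions, the read counter and the annotation were not given in the sources used here. In the deposited table the authors gave a signal per gene and library, which the deposited values show to be reads divided by 1 size factor per library: each value is a whole multiple of 1.14 (WT 1) or 0.989 (WT 2), within 0.01 of a step. Reads were taken from these steps for counting intervals (exact 95% Clopper-Pearson) and for the floor of 3 reads. The 2 library columns of the other genotype were not used. Of the names, 15 are dates, and full stops stand for hyphens.

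Genes were ranked by the mean of log2(value + 1). A difference between single libraries was named past 2-fold on that scale, with no test. Exon lengths (union of exons) and GC (longest transcript) came from GENCODE M21, of another build than the authors', through identifiers for 9000 genes and symbols for 202. Python 3.11.15, numpy 2.4.6, pandas 2.3.3, scipy 1.17.1 and matplotlib 3.10.9 were used, and the code was tested on simulated data. The members and the 38 gene lists were chosen with earlier results of these data known. Named genes were the 7 markers, the first 30 by read count and 15 per kb, the 12 largest differences in each direction at a mean of at least 500, the 12 closest among the first 300, and from each list its 3 most abundant members and its largest difference. Other genes were named after their values were seen, and some genes within the rule are not reported here. Alternatives were pseudocounts of 0.1 and 5, other scalings, folds of 1.5 and 4, a minimum mean of 500, other rankings and each library left out.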

Additional observations from a re-analysis of the deposited data

How the results depend on the processing

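The counts of genes that differed by 2-fold (415 higher in WT 1 and 215 in WT 2) stayed within 1.5 times under pseudocounts of 0.1 and 5, scaling to totals and centring on the median gene. With a mean of at least 500 they were 118 and 72, and the 100 most abundant genes then took 15.8% of the signal, since fewer genes were counted. At 1.5-fold they were 1123 and 988, and at 4-fold 108 and 13. With the median of each GC bin set to 0, an alternative chosen after seeing the data, they were 389 and 143. Ranking by a single library shared 90 or 91 of the 100 most abundant genes, ranking by linear means 97, ranking per kilobase of exon 61, and per kilobase of the longest transcript, chosen after seeing the data, 60. The share of the 100 most abundant genes was 14.6% with either library left out, from 14.57% to 14.63%. Leaving out a library gives no difference between libraries. Of 221 alternative values of list medians over 37 lists, 195 moved by less than the spread. The sign changed in 18 of them, in 11 lists: macrophage and dendritic genes went from 0.59 to -0.33 at a mean of at least 500, and the other medians that changed sign lay within 0.19 of 0. With 2 libraries from unstated sources, differences between animals and technical ones cannot be told apart, and the order of genes per kb depends on the annotation.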
